A study of Mus musculus with 6 samples.

Results

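Retinoic acid, the active form of vitamin A, is made inside cells by a pair of oxidation steps, is held by small binding proteins, and is removed by cytochrome P450 enzymes. The 9 genes described here cover these steps. Rdh10 oxidises retinol to retinaldehyde and Dhrs3 turns retinaldehyde back to retinol. Aldh1a1, Aldh1a2 and Aldh1a3 oxidise retinaldehyde to retinoic acid, Crabp1 and Crabp2 bind the acid in the cytoplasm, and Cyp26a1 and Cyp26b1 break it down. In the mammary gland aldehyde dehydrogenase activity is widely used to mark progenitor cells, and Aldh1a3 is known from mouse luminal progenitors. The genes were taken by symbol from a table of 21627 genes, and all 9 were in it. They were chosen by function around Cyp26b1, which was picked because it stood higher in the knockout. The difference between knockout and wild type is therefore given for these genes as a description, and no test of it is reported.

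RNA was sequenced from mammary epithelial cells of female FVB/N mice, 8 to 12 weeks old, grown as organoids for 6 days and then for 8 days in 2 µg/ml doxycycline. The wild-type (WT) group carried the MIC alleles with EZH2wt/wt, and the knockout (KO) group the MIC alleles with EZH2fl/fl, with 3 libraries each. Both groups received doxycycline, which switched on the polyomavirus middle-T oncogene in all 6 cultures and deleted Ezh2 where its alleles were floxed. The labels name neither the promoter that drives the inducible alleles, nor the deleted exons, nor whether replicates came from separate mice, so errors and tests measure the spread between these libraries, which may be technical. No retinoid is named among the medium's additives.

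Library totals ran from 18292722 to 23437024 counts in WT and from 27667054 to 29203634 in KO. Ezh2, the targeted gene, stood at 19.3, 22.6 and 14.7 CPM (counts scaled to a common library size with the trimmed mean of M-values, TMM) in WT replicates 1 to 3 and at 7.13, 7.28 and 5.84 CPM in KO replicates 1 to 3. The log2 fold change was −1.48 ± 0.20 (SE), at an edgeR adjusted p of 0.0755 (0.0455 without WT replicate 2) and a DESeq2 adjusted p of 1.46e-07. The WT libraries differed in cell markers: the summed level of 8 of 8 fibroblast markers was 2356, 9334 and 12946 CPM in WT against 8645 to 10114 CPM in KO, and that of the 7 macrophage markers of 8 found in the table was 135, 1594 and 434 CPM in WT against 159.8 to 236 CPM in KO. The summed level of 8 luminal progenitor markers, Aldh1a3 among them, was 971, 2726 and 1089 CPM in WT against 1016 to 1245 CPM in KO. Csn3 gave most of it in WT replicate 2, at 1788 CPM, while Kit was lowest there, at 85.1 CPM. None of these markers was at 0 in any library. In bulk RNA, fewer cells of a type and less RNA per cell cannot be told apart.

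The 3 sequences below are windows of 300 bases, from 250 before to 50 after the RefSeq gene start (build GRCm38.p6). They are shown because these genes set the contrast among the enzymes: Cyp26b1 and Aldh1a2 stood higher in KO, and Cyp26a1, the other breakdown enzyme, stood lower. In Cyp26a1 the capitals mark the one match to a retinoic acid response element that was found, and its CG dinucleotides are not marked. In Cyp26b1 and Aldh1a2 the capitals mark CG dinucleotides, which are dense at many Polycomb-bound starts.
Cyp26a1, chr19:37697558-37697857, plus strand: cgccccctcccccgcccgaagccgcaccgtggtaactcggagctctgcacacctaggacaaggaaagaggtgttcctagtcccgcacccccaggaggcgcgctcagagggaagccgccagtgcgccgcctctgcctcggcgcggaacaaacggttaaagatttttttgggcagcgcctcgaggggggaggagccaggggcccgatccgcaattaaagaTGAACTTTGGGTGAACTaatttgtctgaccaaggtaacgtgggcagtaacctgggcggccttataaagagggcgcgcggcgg
Cyp26b1, chr6:84593761-84594060, minus strand: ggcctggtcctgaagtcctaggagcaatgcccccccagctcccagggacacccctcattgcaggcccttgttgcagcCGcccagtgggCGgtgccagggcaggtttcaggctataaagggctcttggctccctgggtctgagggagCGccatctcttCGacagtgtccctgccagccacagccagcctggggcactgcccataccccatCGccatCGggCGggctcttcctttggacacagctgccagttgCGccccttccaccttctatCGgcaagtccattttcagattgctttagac
Aldh1a2, chr9:71215539-71215838, plus strand: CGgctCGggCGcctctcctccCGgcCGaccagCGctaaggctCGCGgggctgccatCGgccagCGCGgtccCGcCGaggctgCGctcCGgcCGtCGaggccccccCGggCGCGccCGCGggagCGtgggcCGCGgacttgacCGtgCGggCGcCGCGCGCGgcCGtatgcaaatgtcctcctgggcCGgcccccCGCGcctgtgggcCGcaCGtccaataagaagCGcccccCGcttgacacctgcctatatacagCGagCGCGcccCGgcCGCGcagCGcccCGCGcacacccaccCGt

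Windows were at hand for 6 of the 9 genes, 9 windows in all since Aldh1a1 has more than one start and Dhrs3 has 3. Each was searched on both strands for direct repeats of the receptor binding unit with a spacer of 2 or 5 bases. The unit was AGGTCA, with G also allowed as its first base and T also allowed before its final TCA, so that AGTTCA was one of the forms sought. A repeat with a spacer of 5 was found in Cyp26a1 alone among the 9 windows. It reads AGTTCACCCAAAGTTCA on the minus strand and lies 16 to 32 bases before the start. Among 32851 windows over all genes, 0.0974% held such a repeat with a spacer of 5 and 0.268% one with a spacer of 2. The window of Aldh1a2 held 50 CG dinucleotides, more than 99.1% of all windows, that of Cyp26a1 held 26, and that of Cyp26b1 held 9, close to the median of 7 over all windows. A match in these letters is a description and not evidence of binding, and the data hold no measurement of Polycomb or its mark at these starts.

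The breakdown enzymes went opposite ways between the groups. Cyp26b1 (ENSMUSG00000063415, chromosome 6, 84571414 to 84593908 in mm10) stood at 2.81, 6.61 and 7.55 CPM in WT replicates 1 to 3 and at 21.8, 15.3 and 18.0 CPM in KO replicates 1 to 3. Every KO library lay above every WT library. The means were 5.66 ± 2.51 CPM across WT and 18.4 ± 3.28 CPM in KO (SD, n = 3 per group), and edgeR fitted a log2 fold change of 1.71 ± 0.36 (SE). Leaving out each library in turn moved this from 1.39 (without WT replicate 1) to 1.97 (without WT replicate 3). Cyp26b1 lies on the same chromosome as Ezh2, with 37.0 Mb between them. Whether DNA carried along with the floxed allele reaches as far as Cyp26b1 was not tested.

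Cyp26a1 (ENSMUSG00000024987, chromosome 19, 37697808 to 37701528), which retinoic acid itself is known to induce strongly, was close to the limit of detection. It had 3, 6 and 17 counts in the WT libraries and 1, 1 and 2 counts in the KO libraries, and was the one gene of the 9 that did not pass the filter on low counts. The KO libraries lay below the WT libraries although they were deeper. Pooled over libraries, 26 WT and 4 KO counts gave a rate in KO of 0.111 times that in WT, with a 95% counting interval of 0.0282 to 0.321 (exact Clopper-Pearson). This interval covers counting error only, and WT replicate 3 alone gave most of the WT counts. WT replicate 3 was also the library with the highest fibroblast sum and the highest Aldh1a1, and the part of either in the Cyp26a1 counts was not tested.

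**Figure D1:**
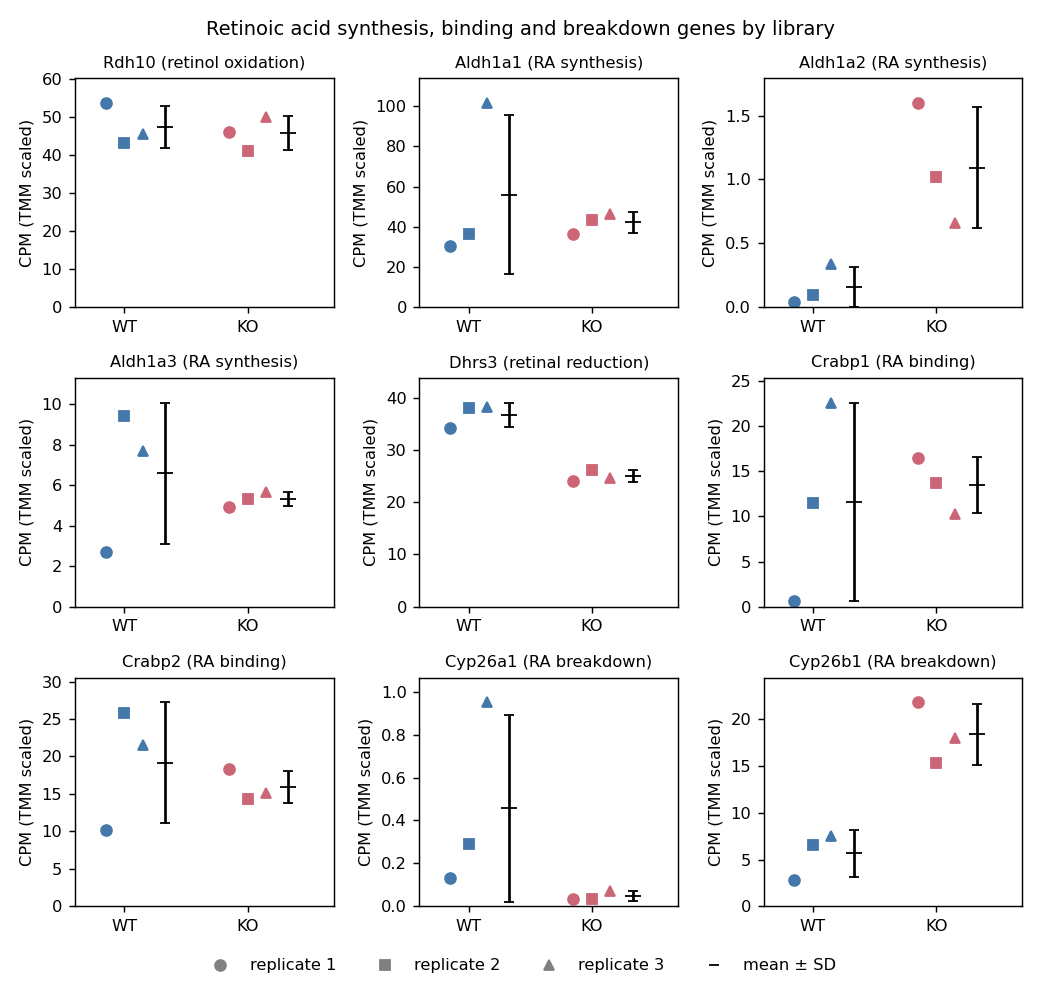
TMM-scaled CPM of the 9 genes in each library (WT in blue, KO in red, marker shapes for replicate numbers), with the mean ± SD of 3 libraries beside each group. The groups do not overlap for Cyp26b1 and Aldh1a2 (KO above) or for Dhrs3 and Cyp26a1 (KO below), and the WT libraries spread widely for Aldh1a1 and Crabp1. Of all genes tested, 28.8% did not overlap. Cyp26b1 was picked for being higher in KO. Aldh1a2 passed the filter on low counts through its KO libraries alone, and Cyp26a1 did not pass it.

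Measured per length, Cyp26b1 was nearly the whole of the breakdown pair in KO. Its FPKM (the deposited level per gene length and library total) was 0.584, 1.44 and 1.55 in WT and 4.62, 3.24 and 3.74 in KO. Its share of the summed Cyp26 FPKM was 74.8% to 89.5% in the WT libraries and 98.9% to 99.6% in the KO libraries. Cyp26b1 was picked for being higher in KO, so this difference restates that choice in large part. The other term, Cyp26a1, had only 1, 1 and 2 counts in the KO libraries. The third family member, Cyp26c1, had CPM values of 0 in 5 libraries and 0.112 in WT replicate 3.

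Among the 3 enzymes that make retinoic acid, Aldh1a1 was by far the most abundant in all 6 libraries and Aldh1a2 the least. Aldh1a1 (ENSMUSG00000053279, chromosome 19, 20601961 to 20643462) took 86.4% to 95.4% of their summed FPKM, Aldh1a3 4.29% to 13.4% and Aldh1a2 0.123% to 3.56%. This order held in each library, and the FPKM ranges of the 3 genes did not overlap.

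Aldh1a2 (ENSMUSG00000013584, chromosome 9, 71215789 to 71296243), the main retinoic acid source of the early embryo, was nearly silent in WT and low in KO. It had 1, 2 and 6 counts in the WT libraries and 46, 30 and 18 counts in the KO libraries, or 0.0432, 0.0965 and 0.336 CPM against 1.60, 1.02 and 0.661 CPM. All KO libraries lay above all WT libraries. The pooled counts, 9 and 94, gave a rate in KO of 7.55 times that in WT, with a counting interval of 3.81 to 17.0. Such an interval covers counting error only and not the spread between libraries. Aldh1a2 passed the filter on low counts through its KO libraries alone, so the interval is a description. The fitted log2 fold change was 2.83 ± 0.71 (SE), and 2.37 without WT replicate 1, 2.44 without KO replicate 1 and 3.90 without WT replicate 3. Even in KO its FPKM of 0.484 ± 0.213 (SD, n = 3) was a small part of the 20.5 ± 2.39 FPKM of Aldh1a1.

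Aldh1a1 did not separate the groups. It stood at 30.2, 36.1 and 101.6 CPM across WT and at 36.3, 43.5 and 46.6 CPM in KO, so that WT replicate 3 alone lay above the KO libraries. The log2 fold change of −0.41 ± 0.44 (SE) turned to 0.35 without WT replicate 3. Its neighbour and close copy Aldh1a7, named after its values were seen, had its highest value in the same library, at 55.0 CPM in WT replicate 3 against 14.5 and 13.4 CPM in the other WT libraries, and reads of these copies may be split between them.

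Aldh1a3 (ENSMUSG00000015134, chromosome 7, 66390892 to 66427517) likewise overlapped, at 2.68, 9.41 and 7.66 CPM across WT and 4.94, 5.34 and 5.66 CPM in KO. Its log2 fold change was −0.31 ± 0.42 (SE), and 0.05 without WT replicate 2. The WT libraries lay on both sides of the narrow KO range.

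The gene pair that interconverts retinol and retinaldehyde split as well. Dhrs3 (ENSMUSG00000066026, chromosome 4, 144892827 to 144928209), the reductase that lowers the supply of retinaldehyde, was measured at 34.1, 38.0 and 38.2 CPM across WT and at 24.0, 26.3 and 24.6 CPM in KO. The groups did not overlap and each was narrow, at 36.8 ± 2.29 and 25.0 ± 1.16 CPM (SD, n = 3 per group). The log2 fold change was −0.56 ± 0.10 (SE), from −0.60 to −0.53 with each library left out in turn. This was the smallest error among the 8 genes fitted.

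Rdh10 (ENSMUSG00000025921, chromosome 1, 16105774 to 16133734), the retinol dehydrogenase that feeds the pathway, was at 53.7, 43.1 and 45.5 CPM across WT and 46.1, 41.0 and 50.0 CPM in KO. Its log2 fold change of −0.05 ± 0.13 (SE) lay beside a median of −0.05 over all genes tested, and was 0.06 without WT replicate 1. Per length, Rdh10 and Dhrs3 were at similar levels, at 13.2 ± 1.36 and 15.8 ± 1.24 FPKM in WT and 12.7 ± 1.11 and 10.7 ± 0.559 FPKM in KO (SD, n = 3 per group). Dhrs3 was above Rdh10 in 2 of the 3 WT libraries and below it in every KO library.

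**Figure D2:**
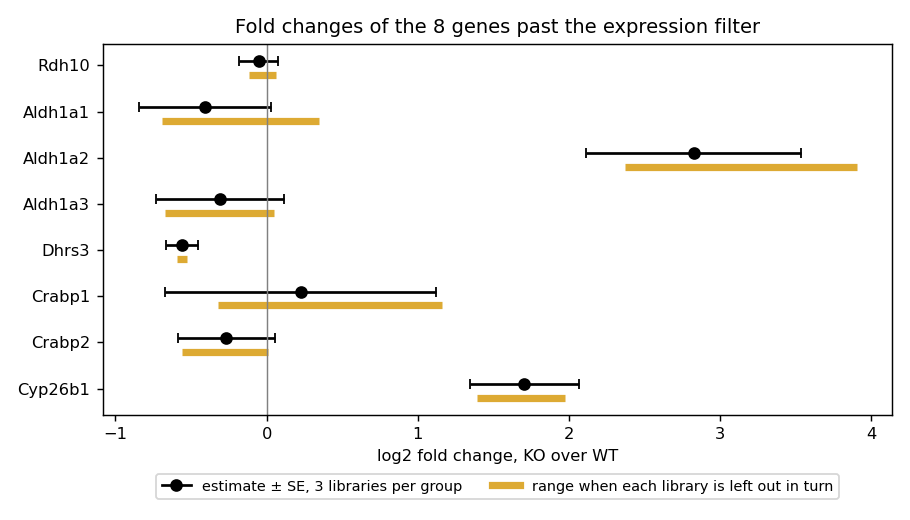
Log2 fold change, KO over WT, of the 8 genes past the expression filter: points and bars are the estimate ± SE over 3 libraries per group, and the yellow bands the range when each library is left out in turn. The bands of Cyp26b1 and Aldh1a2 lie above 0 and that of Dhrs3 below it, while those of the other 5 genes cross 0.

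The binding proteins varied more between WT libraries than between groups. Crabp1 (ENSMUSG00000032291, chromosome 9, 54764748 to 54773110), often linked to handing retinoic acid to breakdown, was nearly missing from WT replicate 1, at 0.648 CPM, against 11.5 and 22.6 CPM in the other WT libraries and 16.4, 13.7 and 10.2 CPM in KO. Its log2 fold change of 0.23 ± 0.90 (SE) became −0.32 without WT replicate 1 and 1.16 without WT replicate 3. Crabp2 (ENSMUSG00000004885, chromosome 3, 87948666 to 87953376), which carries retinoic acid to its nuclear receptors, stood at 10.2, 25.8 and 21.6 CPM across WT and 18.3, 14.3 and 15.2 CPM in KO, a log2 fold change of −0.27 ± 0.32 (SE) that was 0.01 without WT replicate 2. WT replicate 1 was thus the lowest of all libraries for both. Crabp1 made up 6.90% of the summed Crabp FPKM in WT replicate 1 and 34.1% to 54.9% in the other 5 libraries.

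Crabp1 was lowest in WT replicate 1, where the fibroblast sum was lowest at 2356 CPM. It was highest in WT replicate 3, where the sum was highest at 12946 CPM. Collagen genes of the list made up most of the sum. Pdgfra, named after its values were seen, alone of the list was not lowest in WT replicate 1. It stood at 105.9 CPM there against 51.3 CPM in WT replicate 2. The part of the fibroblast markers in the Crabp1 values was not tested. Cyp26b1 ran in the same order within WT, at 2.81, 6.61 and 7.55 CPM where the sums were 2356, 9334 and 12946 CPM. The KO libraries, with sums of 8645 to 10114 CPM, had 15.3 to 21.8 CPM of Cyp26b1. Macrophage markers were highest in WT replicate 2, and without that library the log2 fold change of Cyp26b1 was 1.85. The part of either marker list in the Cyp26b1 values was not tested.

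**Figure D3:**
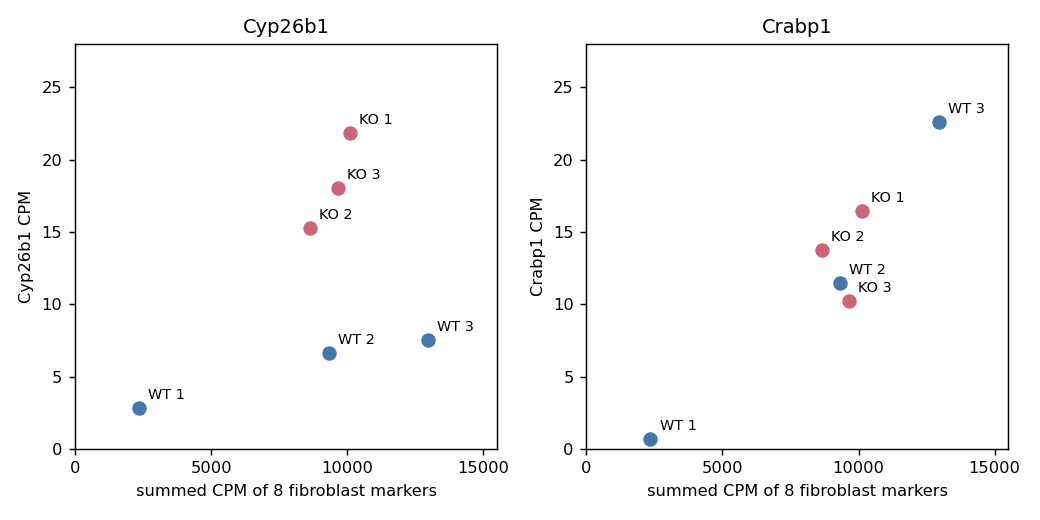
CPM of Cyp26b1 (left) and Crabp1 (right) against the summed CPM of 8 fibroblast markers, 1 point per library. Collagen genes make up most of the sum. In both panels the WT libraries run from replicate 1, lowest on both axes, to replicate 3, the highest of WT on both, and the KO libraries, at sums of 8645 to 10114 CPM, lie above all WT libraries for Cyp26b1 and within the WT range for Crabp1.

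Set against each other per length, transcripts for making retinoic acid exceeded those for breaking it down in all libraries, and by less in KO. The summed FPKM of the 3 Aldh1a genes divided by that of the 2 Cyp26 genes was 23.3, 13.1 and 24.4 in WT replicates 1 to 3 and 4.3, 7.16 and 6.42 in KO replicates 1 to 3. The groups did not overlap in this ratio, but Cyp26b1, picked for being higher in KO, made up 74.8% to 99.6% of its denominator, so the separation restates that choice in large part. Summed Cyp26 FPKM was 0.656 to 2.08 in WT and 3.26 to 4.64 in KO, while summed Aldh1a FPKM was 15.3 to 50.7 in WT and 19.9 to 24.2 in KO. The ratio counts transcripts, not enzyme activity or retinoic acid, neither of which was measured.

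**Figure D4:**
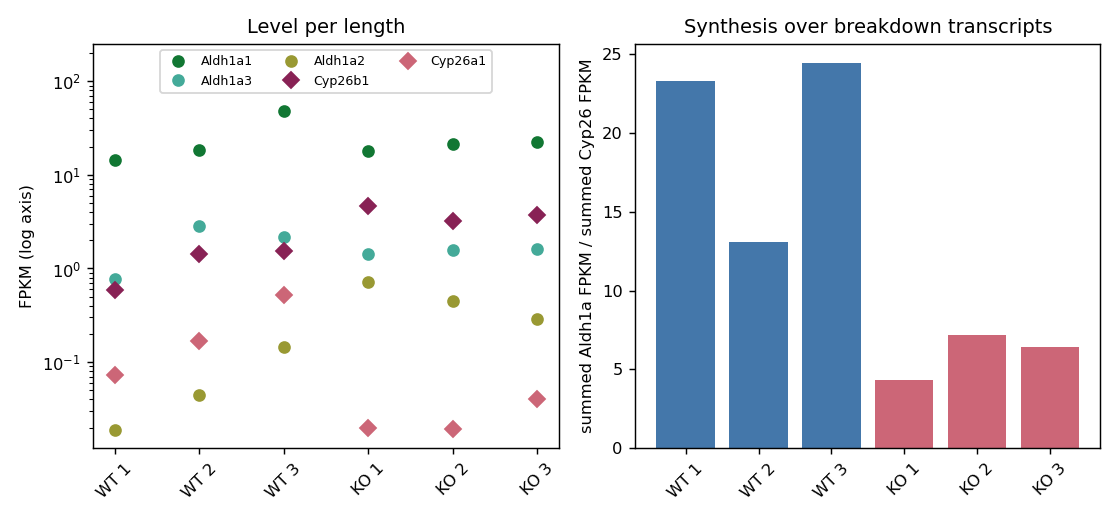
Left, FPKM on a log axis of the 3 Aldh1a genes (circles) and the 2 Cyp26 genes (diamonds) in each library. Right, summed Aldh1a FPKM over summed Cyp26 FPKM per library, 13.1 to 24.4 in WT (blue) and 4.3 to 7.16 in KO (red).

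Of the 8 fitted genes, 3 had libraries that did not overlap between the groups, Cyp26b1 and Aldh1a2 with KO above and Dhrs3 with KO below, where 28.8% of all genes tested did (14.2% with KO above and 14.6% with KO below). The genes were gathered around this contrast, and Aldh1a2 passed the filter on low counts (a minimum count of 10) through its KO libraries alone, so this count carries no weight as evidence. Over all 14196 genes the main test, edgeR's quasi-likelihood test, called 0 at an adjusted p of 0.05 (0%) and 2811 at an unadjusted p under 0.05 (19.8%), and DESeq2 called 7.37%.

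The genes whose level followed Cyp26b1 most closely over the 6 libraries, among 10491 protein-coding genes with a mean of at least 5 CPM, were Dact2, Stard4, Atp10a, Ankrd13a and Hk1. Their Pearson correlations on the log2(CPM + 1) scale were 0.996, 0.995, 0.995, 0.995 and 0.995. All 6 points enter, so the correlation includes the difference between the groups. The likeness is in a linear pattern over the libraries and not in size, since their log2 fold changes ran from 0.39 for Dact2 to 0.77 for Stard4.

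Beyond these 9 genes, 59 other genes of retinoid biology were listed, 53 were in the table and 38 passed the expression filter. Among those higher in KO by DESeq2's test were Rxra, the most abundant retinoid receptor here, the receptor coactivators Ncoa1 and Ncoa3, the corepressor Nrip1 and the homeobox gene Meis1. Rarres2, which encodes the chemoattractant chemerin, was lower. In all, 7 higher and 1 lower genes of the 38 were past this test, to compare with 3.97% and 3.40% of all genes tested. The lists were chosen with earlier results of these data known, so these counts are a description and carry no weight as evidence. In edgeR 0 of the 38 passed, and 8 higher and 2 lower genes had an unadjusted p under 0.05, against 8.93% and 10.9% of all genes. The median log2 fold change of the 38 was −0.02, beside −0.05 over all genes. The DESeq2 count was 0 without KO replicate 1 or without KO replicate 2 and 1 (Rarres2) without KO replicate 3, and 7 to 11 without 1 of the WT libraries.

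The receptors did not move as one group. Retinoic acid receptors act as dimers of a RAR and an RXR protein. Rxra stood at 194, 169.9 and 222 CPM across WT and at 291, 247 and 274 CPM in KO, with all KO libraries above all WT libraries. Its log2 fold change was 0.47 ± 0.13 (SE), with an adjusted p of 0.0276 in DESeq2 and 0.140 in edgeR. Rxrb stood at 97.9, 70.8 and 82.0 CPM across WT and lower in every KO library, at 67.9, 61.0 and 70.4 CPM. Its log2 fold change of −0.33 ± 0.14 (SE) was past neither test, with an adjusted p of 0.260 in DESeq2 and 0.248 in edgeR. Rarg, Rara and Rarb, named after their values were seen, had log2 fold changes of −0.0016 ± 0.17, 0.12 ± 0.12 and 0.39 ± 0.21 (SE). Of these Rarb, a well-known target of its own ligand, stood at 14.5, 8.83 and 14.3 CPM across WT and 16.0, 16.3 and 17.0 CPM in KO. Its libraries did not overlap, with KO above, as for 14.2% of all genes tested. Rarb was past neither test, with an adjusted p of 0.337 in DESeq2 and 0.343 in edgeR. Rxrg had 0.104 CPM in KO replicate 1 and 0 in the other 5 libraries.

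All 6 receptor cofactor genes had positive log2 fold changes, also under the other scalings, with a median of 0.37. The difference was not alike in all: DESeq2 called 4 of the 6 higher, against 3.97% of all genes tested. As the list was chosen with earlier results of these data known, this count is a description. In edgeR 0 of the 6 passed, as of all genes, and no cofactor was called by DESeq2 when any KO library was left out. These cofactors serve many nuclear receptors, not retinoid receptors alone. Ncoa3, at 116, 113 and 111 CPM across WT and 146, 148 and 144 CPM in KO, had tight groups and a log2 fold change of 0.36 ± 0.09 (SE). Ncoa1 was at 0.47 ± 0.11 and Nrip1, which is itself induced by retinoic acid, at 0.37 ± 0.10. The DESeq2 adjusted p of these 3 genes was 0.00343, 0.00727 and 0.0267 in this order, and edgeR's was 0.109, 0.103 and 0.127.

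Genes known to be induced by retinoic acid were not of one direction, and their median log2 fold change was −0.18 over the 14 of 19 listed genes that were tested. By DESeq2 3 were higher, Meis1 and Nrip1 among them, and 1 was lower (Rarres2), against 3.97% and 3.40% of all genes tested. This list too was chosen with earlier results known, so the counts are a description. Leaving out any KO library removed the calls of Meis1 and Nrip1. The call of Meis1 was also lost without WT replicate 2, and that of Nrip1 without WT replicate 3. Meis1 had a log2 fold change of 0.68 ± 0.20 (SE), at a DESeq2 adjusted p of 0.0353 and an edgeR adjusted p of 0.144. Rarres2 stood at 0.691, 4.20 and 2.63 CPM across WT and at 0.382, 0.340 and 0.367 CPM in KO, a log2 fold change of −2.77 ± 0.65 (SE) with a DESeq2 adjusted p of 0.00337 and an edgeR adjusted p of 0.109. It was the one gene of the 38 that edgeR called when a library was left out (without WT replicate 1, adjusted p 0.0482). It lies at 48569698 to 48572670 on chromosome 6, with 0.974 Mb between it and Ezh2. For Rarres2, DNA carried along with the floxed allele and the loss of Ezh2 therefore cannot be told apart. Tgm2, the transglutaminase and the most abundant gene of the list, was at −0.14 ± 0.10 (SE).

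Retinol uptake and storage genes and the other oxidoreductases held 0 genes past either test, where DESeq2 called 7.37% and edgeR 0% of all genes tested. In edgeR 0 of their 4 and 11 tested genes had an unadjusted p under 0.05, against 19.8% of all genes. With so few genes these counts are a description. Dgat1, which makes retinyl esters as well as triglycerides, was at 0.20 ± 0.09 on the log2 scale (SE). Among the dehydrogenases Adh5, the most abundant, was at −0.12 ± 0.10, Dhrs7 at −0.32 ± 0.16 and Rdh5 at −0.93 ± 0.57. The remaining binding and breakdown genes, Fabp5 and Cyp2s1, were at −0.05 ± 0.18 and 0.03 ± 0.64, and Cyp2s1 was under 1 CPM in each library.

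**Figure D5:**
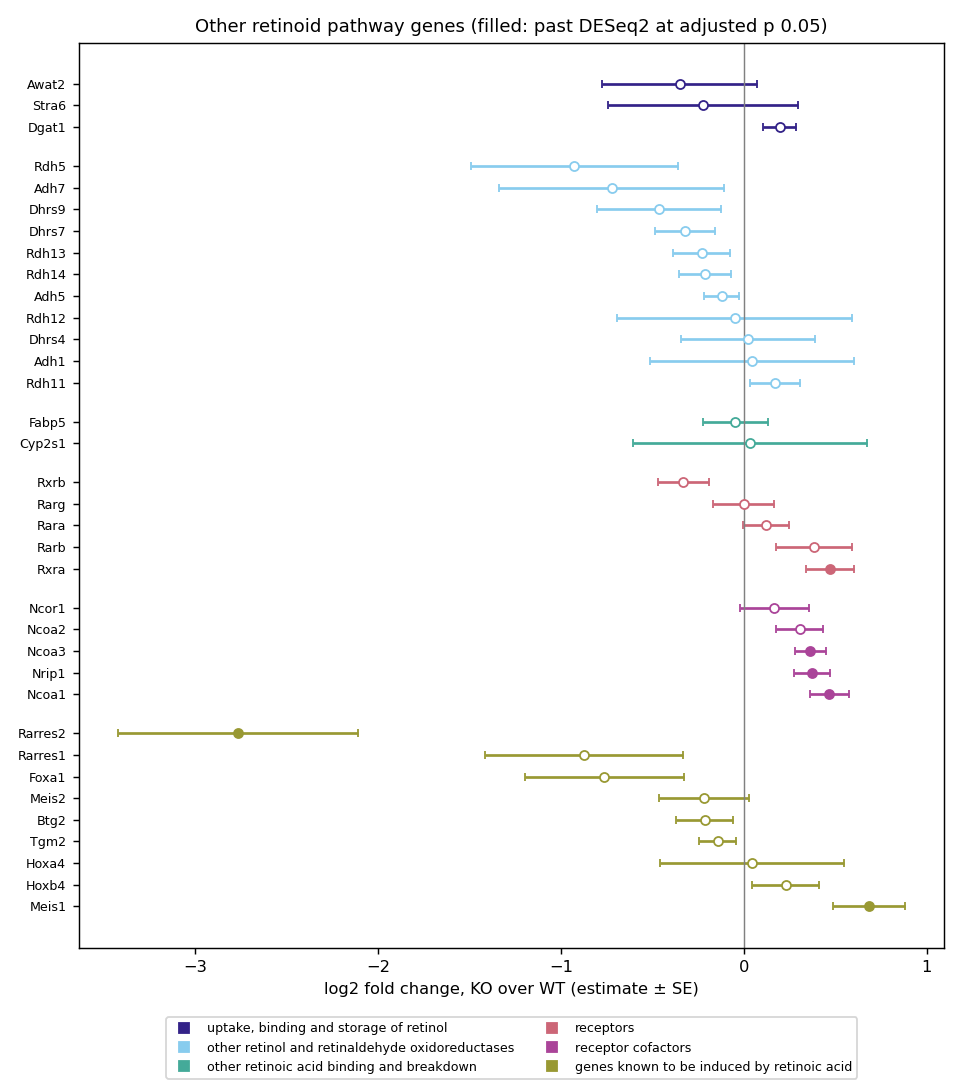
Log2 fold change, KO over WT (estimate ± SE, 3 libraries per group), of 35 of the tested retinoid genes outside the 9, coloured by list, with filled points for those past DESeq2's test. A gene in more than one list is drawn once, in the first, and the cofactor genes drawn all lie right of 0.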

How the data were processed

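The 9 genes, the pathway lists and the marker lists were chosen with earlier results of these data known. The deposited table holds raw counts per gene and library and FPKM values, per the file headers. FPKM matched the count divided by gene length and column total to within 2.1e-07 of its value. The authors also deposited a mean signal per group, a log2 fold change and p-value columns, which are not quoted here. The submitters' processing notes name CASAVA, STAR and mm10, with no versions. How reads were counted, with which annotation and whether by strand was not given in the labels or files. PCR copies were not marked, so the counting intervals take every read as independent and may be too narrow. At best they cover counting error only. No annotated gene in GENCODE M21 (21407 identifiers matched) overlaps an exon of the 9 genes. Symbols of 24 genes that had become dates were restored.

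The main test on counts was that of edgeR 4.0.16 (R 4.3.3), with TMM scaling, a minimum count of 10 and total of 15, a robust quasi-likelihood test, Benjamini-Hochberg adjustment over all 14196 genes tested, threshold 0.05. The scripts were tested on simulated data. Alternatives were DESeq2 1.42.0, other scalings and filters, no robust estimation, a replicate block, each library left out, and limma 3.58.1 on log2(FPKM + 1) or log2(FPKM + 0.1). DESeq2 with each library left out was added after seeing the data. Named were the 9 genes, Ezh2, the 5 genes most like Cyp26b1, and in each list the genes called, the 2 with the smallest p and the most abundant. Promoter windows are RefSeq's. Where the rule takes further genes, they are counted but their values are not reported here.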

Additional observations from a re-analysis of the deposited data

How the results depend on the processing

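Of 14196 genes edgeR called 0. DESeq2 called 1046, limma-trend 2 at either pseudocount, edgeR with no filter on low counts 131, and edgeR with 1 library left out 0 to 216. DESeq2 with 1 library left out called 279 to 2002. Of the 38 retinoid pathway genes edgeR called 0, DESeq2 8, edgeR with 1 library left out 0 to 1, and DESeq2 with 1 library left out 0 to 11. Ezh2 had a log2 fold change of −1.48 in edgeR, past the threshold at −1.47 in DESeq2 and −1.46 with no filter, and −1.63 to −1.33 with 1 library left out. Cyp26b1 had 1.71, and 1.17 on the log2(FPKM + 1) scale, which understates changes of low genes, and 1.39 to 1.97 with 1 library left out. The cause of the other differences was not tested. Under RLE and upper-quartile scaling the 8 fitted genes kept their signs.

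Replicate numbers are shared between the groups, but deviations of same-numbered libraries correlated at −0.0934, 0.299 and 0.117, so the numbers were not taken to pair the libraries. With the replicate number as a block edgeR called 0 genes and 0 pathway genes, Cyp26b1 had a log2 fold change of 1.78 and Ezh2 of −1.47. With 1 to 17 counts per library, the levels of Cyp26a1 in all libraries and of Aldh1a2 in WT are limited by depth.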
